A study of Zea mays with 18 samples.

Results

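Roots of the maize inbred line Lo5 were compared after 4 d and after 0 d of growth in a nutrient solution without nitrogen (N). Lo5, a line with a high N use efficiency, and T250, a line with a low one, had been germinated and held in aerated calcium sulphate solution before N-free growth began, and roots were collected at 0, 1 and 4 d. The comparison uses 6 of the 18 arrays of the series, 3 of Lo5 at 4 d and 3 of Lo5 at 0 d, chosen by their labels, and the same days of T250 are given where the lines are set side by side. Each array held the pooled roots of 3 seedlings from 1 growth experiment, and the experiment was repeated independently 3 times. All groups share the calcium sulphate step and the lack of N, and no N-fed roots of the same age are among the 18 arrays. By the study's methods the N-free solution held phosphate, potassium, magnesium, iron, copper and zinc, which the calcium sulphate solution before 0 d did not. So a change between days holds the effects of N lack, of 4 d of growth and of the supply of these nutrients.

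Roots take up N mainly as nitrate and ammonium through membrane transporters, reduce nitrate and fix the ammonium into glutamine and asparagine. When external N runs out, plants draw on stored N, adjust the uptake of other nutrients such as phosphate, and change root growth through hormones and transcription factors. N lack and phosphate signalling are known to be linked, with SPX-domain proteins acting as phosphate sensors that hold back phosphate starvation genes.

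The arrays were 1-colour oligonucleotide arrays, and a level is given here as log2 of the spot's signal minus log2 of the 75th percentile of its array, so that 0 is the level that 75 percent of an array's probes do not exceed. On the 6 arrays 29573 to 30676 of 39372 probes were well above background, 5.62 to 9.13% of spots carried a mark of the scanner software for an uneven or outlying spot and were left out, and 0 were saturated. Correlations were 0.974 to 0.981 among the 4 d arrays, 0.936 to 0.966 among the 0 d arrays and 0.934 to 0.964 between the days. On an index that is 0 for T250 and 1 for Lo5, built on probes chosen on the other day, the Lo5 arrays read 1.01 to 1.03 at 4 d and 0.908 to 0.949 at 0 d, whereas the array labelled Lo5 1 d replicate 3 read 0.095, so its values are shown apart below. Root markers (7 probes) were well above background for 5, 5 and 6 probes at 4 d and for 5, 6 and 7 at 0 d. Their summed signal was 94.5 to 167 and 141 to 198 times the 75th percentile. Most of it came from the aquaporin pip2-5, with log2 levels of 5.93 to 6.91 at 4 d and 6.79 to 7.40 at 0 d. The root hair gene rth3 had 5.15, 4.78 and 4.75 at 4 d and 4.02, 4.46 and 3.90 at 0 d. Of 3 root markers tested, rth3 not among them, 2 were lower and 0 higher at the methods' threshold given below. Green shoot markers (13 probes) had a summed signal of 0.228 to 0.366 at 4 d and 0.631 to 0.811 at 0 d and did not overlap. Of 6 tested, 3 were lower and 0 higher at the methods' threshold given below, which 4.5% of all probes passed. The 33 probes picked by symbol as seed storage markers had 2.09 to 2.84 and 2.30 to 3.04. They include tgase, gigz1b and GI, whose symbols are not those of storage proteins. Since tgase alone had log2 levels of -0.01 to 0.06 at 4 d and 0.02 to 0.47 at 0 d, this sum does not measure storage transcripts. In pooled whole roots, fewer cells of a type and less RNA per cell cannot be told apart, and the part of the green shoot signal in the results below was not tested.

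**Figure D1:**
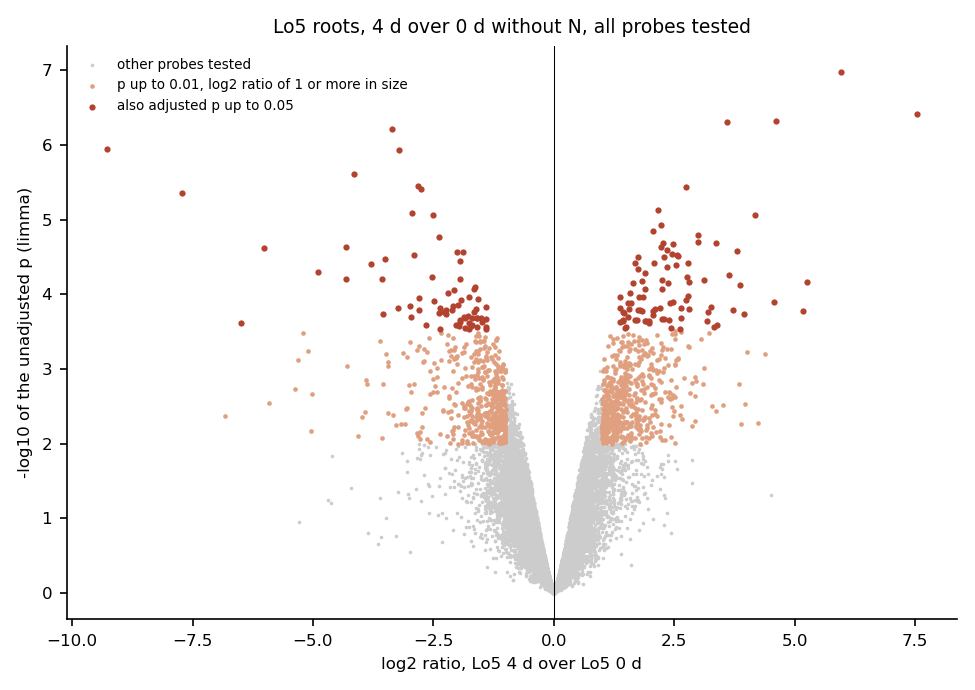
Each point is 1 of 26224 probes tested; the x axis is the log2 ratio of Lo5 4 d over Lo5 0 d and the y axis is -log10 of the unadjusted p from limma. Red points are the 91 higher and 72 lower transcripts with an adjusted p up to 0.05 and a log2 ratio of 1 or more in size, and orange points are the others of the 1181 past the unadjusted threshold.

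A total of 26224 probes gave a signal well above background throughout the 3 arrays of either day and were tested with limma. At the threshold of the study's methods, an unadjusted p of 0.01 with a 2-fold difference or more, 616 transcripts were higher (2.35% of the probes tested) and 565 were lower (2.15%) at 4 d than at 0 d. After Benjamini-Hochberg adjustment over all probes (adjusted p up to 0.05 with a log2 ratio of 1 or more in size), 91 had risen (0.347%) and 72 had fallen (0.275%). With quantile normalization the split was 832 higher and 393 lower at the threshold of the methods, and 192 and 75 after adjustment. The methods' t-test gave 0 transcripts after adjustment and 449 at the threshold of the methods, and limma over all 18 arrays gave 21 and 506. With a block for the replicate number, limma on the 6 arrays gave 15 and 1128. "Rose" and "fell" are used below of these 163 only. The median log2 ratio was 2.28 among the 91 and -2.11 among the 72, against -0.09 over all probes, and the smallest change among the 163 was 1.37 in size. All 163 had day groups that did not overlap, where 26.1% of all probes did so, and 162 did so with marked spots kept. Arrays of both days shared a slide in 2 cases, and the 161 and 157 of these transcripts measured there changed in the same direction within each. Day groups that do not overlap fix this direction in advance, so it is no check on slide effects. The adjusted count depended on each array: it was 254 without Lo5 0 d replicate 1, which was the array scanned apart from the other 5, and 8 and 20 without replicates 2 and 3 of 0 d. It was 22, 9 and 19 without replicates 1, 2 and 3 of 4 d. All 163 stayed past the unadjusted threshold of the methods in all 6 of these fits. They had been picked from the same arrays at a stricter threshold, so this is no independent support.

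**Figure D2:**
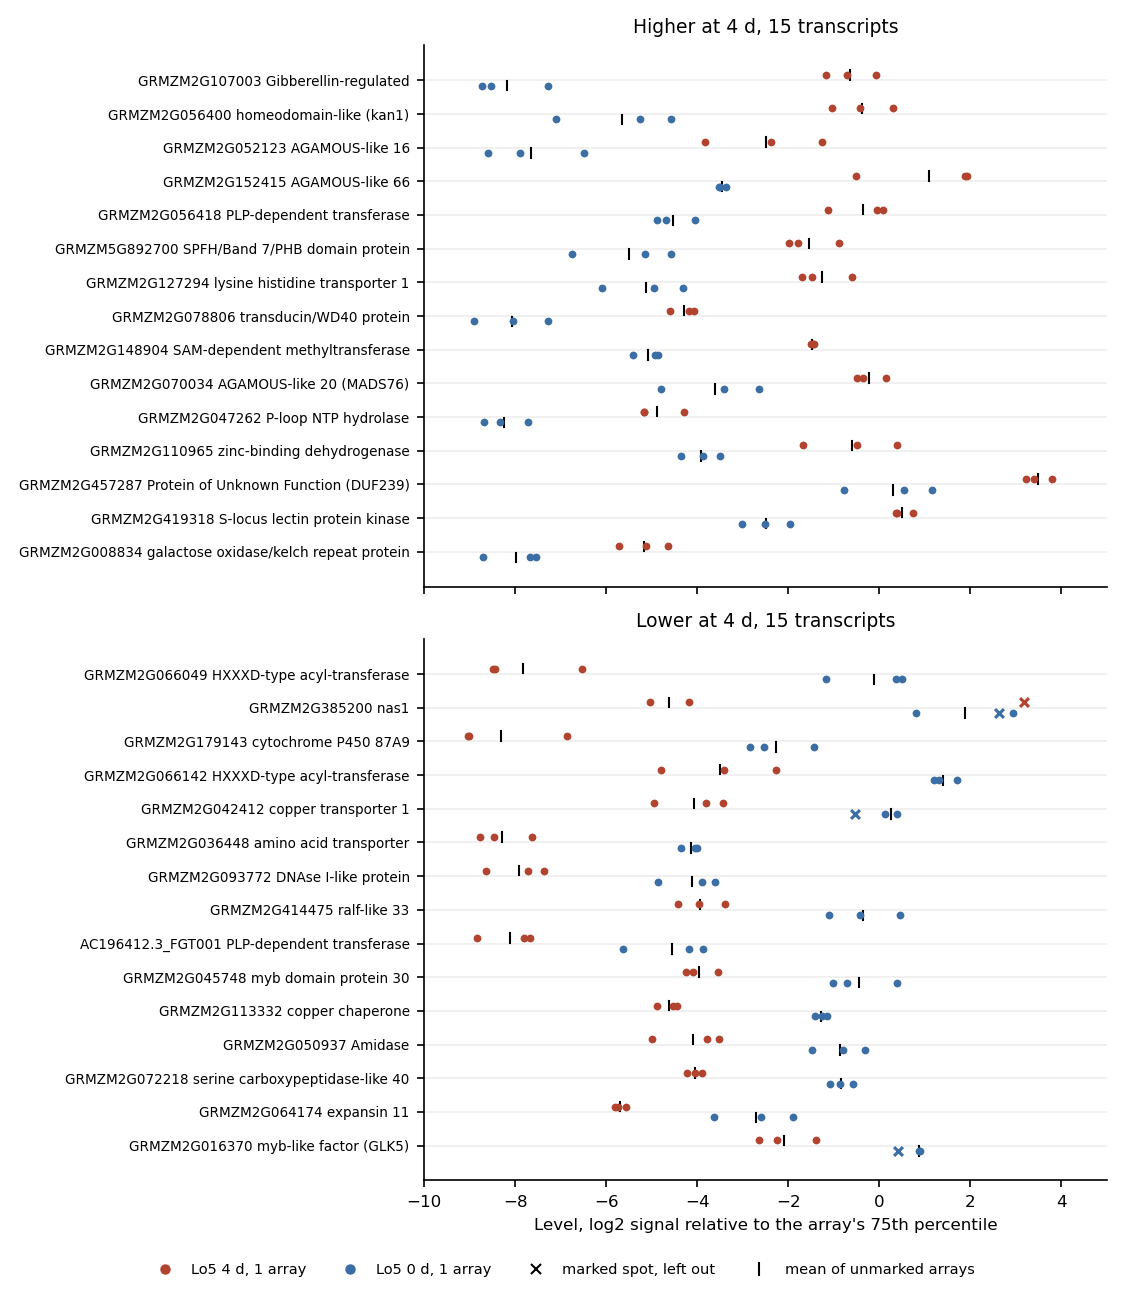
Level of the 15 higher and 15 lower transcripts in each Lo5 array, on the x axis as log2 relative to the array's 75th percentile, with 4 d in red above 0 d in blue and a bar at each mean. The 30 were chosen among transcripts whose unmarked values of the days are apart, so that trait is no result. The transcript nas1 is the one whose marked 4 d spot (3.17) lies above all its 0 d values.

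The largest rise was that of GRMZM2G107003, a gibberellin-regulated family protein of the small cysteine-rich kind. (Transcripts are given by their identifiers without the ending T01, and most names are those of the closest Arabidopsis protein.) Its level was -1.17, -0.07 and -0.71 at 4 d, against -7.28, -8.73 and -8.53 at 0 d, where no array read it well above background. It was at least 57.8-fold higher at 4 d (adjusted p = 0.00319). KANADI factors set organ polarity, and kan1 (GRMZM2G056400) had -1.04, 0.31 and -0.43 at 4 d and -5.26, -4.57 and -7.12 at 0 d, where 2 of 3 arrays read it above background, a log2 ratio of 5.26 ± 0.66 (SE, adjusted p = 0.0305). A PLP-dependent transferase, GRMZM2G056418, had -0.06, -1.14 and 0.08 at 4 d and -4.06, -4.89 and -4.68 at 0 d (4.17 ± 0.38, adjusted p = 0.0144). The S-adenosylmethionine-dependent methyltransferase GRMZM2G148904 varied least at 4 d, with -1.51, -1.45 and -1.47, against -5.42, -4.88 and -4.94 at 0 d (3.60 ± 0.22, adjusted p = 0.00319). All these groups were apart by more than the spread within either day, though day groups that do not overlap were a condition of the choice. Others among the 15 largest rises were an SPFH/Band 7 membrane protein (3.94 ± 0.57, above background on 2 of 3 arrays at 0 d), a zinc-binding dehydrogenase (GRMZM2G110965, 3.32 ± 0.51) and a DUF239 protein (GRMZM2G457287, 3.18 ± 0.47). Not well above background at 0 d were a WD40 protein (GRMZM2G078806, at least 4.65-fold higher at 4 d), a P-loop hydrolase (GRMZM2G047262, at least 3.08-fold) and a kelch-repeat protein (GRMZM2G008834, at least 2.53-fold, but with no higher level under the normexp background correction).

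Phosphate genes moved in both directions. Phosphate came with the N-free solution after 0 d, so its supply and N lack cannot be told apart here. Of the transcripts with a symbol of a phosphate transporter, 3 of 7 tested were higher and 1 was lower at the threshold of the methods (57.1%, where 4.5% of all probes were past it in either direction), with a median log2 ratio of 0.51 (-0.09 with the normexp background correction). The 3 higher ones (pht1-6, pht11 and PHT1-3) are named in the study's text, and PHT1-3 was not higher with that correction. The transcript pht1-6 had 1.68, 2.24 and 2.71 at 4 d, against -3.66, -3.96 and -3.64 at 0 d (5.96 ± 0.30, adjusted p = 0.00274). A further carrier, phosphate transporter 3;1 (GRMZM2G009045), whose Arabidopsis counterpart carries phosphate into mitochondria, had -1.87, -1.86 and -1.80 at 4 d and -3.23, -3.91 and -4.31 at 0 d (1.97 ± 0.29, adjusted p = 0.0429). Some genes known from Arabidopsis to be raised by phosphate lack fell in the same roots. SPX domain gene 3 (GRMZM5G828488) had -3.32, -2.96 and -4.42 at 4 d and -0.98, -0.95 and -0.37 at 0 d (-2.80 ± 0.40, adjusted p = 0.0411). Phosphate starvation-induced gene 2 (GRMZM5G836174), a phosphatase, had -1.92, -1.16 and -1.86 at 4 d and 0.02, -0.01 and 0.32 at 0 d (-1.76 ± 0.27, adjusted p = 0.0438). The days were apart in each: pht1-6 and GRMZM2G009045 were higher at 4 d, and GRMZM5G828488 and GRMZM5G836174 were lower. The probes named purple acid phosphatase 3 had log2 ratios of -1.26, -1.23 and -1.15 and adjusted p of 0.057 to 0.072, and pht7 had -1.63 ± 0.40 (adjusted p = 0.136, 1 marked spot at 0 d left out) and was not past the threshold of the methods without 0 d replicate 3 or 4 d replicate 1 or 2.

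A copper transporter and a copper chaperone fell. Copper, iron and zinc came with the N-free solution after 0 d, so their supply and N lack cannot be told apart either. Copper transporter 1 (GRMZM2G042412), of the family that brings copper into cells, had -3.44, -3.80 and -4.95 at 4 d, against 0.13 and 0.38 at 0 d with the third spot marked (-4.32 ± 0.46, adjusted p = 0.03). A copper chaperone (GRMZM2G113332), a protein that hands copper on inside the cell, had -4.46, -4.89 and -4.55 at 4 d and -1.42, -1.25 and -1.15 at 0 d. It was 10.2-fold lower (-3.36 ± 0.21, adjusted p = 0.00326). A zinc transporter 5 precursor (GRMZM2G093276) rose by less (1.55 ± 0.21, adjusted p = 0.0411, above background on 1 of 3 arrays at 0 d). The iron and zinc list had 1 of 8 probes past the threshold of the methods, nas1 (GRMZM2G385200), nicotianamine synthase. Its unmarked levels were -4.19 and -5.05 at 4 d and 0.80 and 2.94 at 0 d (-6.49 ± 0.75, adjusted p = 0.0438). With the marked spots kept, 4 d replicate 3 stood at 3.17, the days overlapped and the log2 ratio was -4.15 (adjusted p = 0.347). It is also 1 of the 7 root markers.

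Amino acid carriers split. Lysine histidine transporter 1 (GRMZM2G127294), which in Arabidopsis roots takes up amino acids from the soil, had -0.61, -1.69 and -1.48 at 4 d and -4.32, -4.96 and -6.09 at 0 d, and was 14.6-fold higher (3.86 ± 0.49, adjusted p = 0.0317). In the other direction, a transmembrane amino acid transporter (GRMZM2G036448) lay between -8.77 and -7.63 at 4 d, near background throughout, against -4.04, -4.02 and -4.36 at 0 d. The fall was at least 6.49-fold (adjusted p = 0.00799). Amino acid permease 2 had a log2 ratio of 1.28 (adjusted p = 0.0666), and 2 other amino acid transporters had -1.79 and -1.22 (adjusted p = 0.0921 and 0.0917), the first of them short of the threshold of the methods without 0 d replicate 2.

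Transcripts of MADS-box factors, known for floral timing and organ identity and in part expressed in roots, were found on the higher side. Of 7 tested under such a name, 6 were higher past the threshold of the methods, 5 of them after adjustment, and 0 were lower. These names exist mostly for transcripts that the study had called, and the group was picked after its values were seen, so its share has no comparison. AGAMOUS-like 66 (GRMZM2G152415) had -0.52, 1.88 and 1.92 at 4 d and -3.52, -3.37 and -3.51 at 0 d, 23.6-fold higher (4.56 ± 0.62, adjusted p = 0.041). MADS76 (GRMZM2G070034), named after AGAMOUS-like 20, had 0.15, -0.49 and -0.36 at 4 d and -2.64, -3.42 and -4.79 at 0 d (3.38 ± 0.52, adjusted p = 0.0455). AGAMOUS-like 16 (GRMZM2G052123) had -1.27, -2.38 and -3.84 at 4 d and was not well above background at 0 d, where it lay between -8.61 and -6.48. It was at least 15.8-fold higher at 4 d (adjusted p = 0.0411). ZAGL1 (1.51 ± 0.23) and m18 (1.55 ± 0.23, above background on 2 of 3 arrays at 0 d) also rose, and m5 had 2.23 ± 0.37 (adjusted p = 0.0566).

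Some WRKY factors, regulators of defence and stress responses, were higher. Of 18 with a WRKY symbol, 4 were higher and 0 lower at the threshold of the methods (22.2%, where 2.35% of all probes were higher), 14 did not pass it, and the median log2 ratio was 0.39. WRKY104 (GRMZM2G169149) had -1.30, -1.30 and -1.53 at 4 d and -3.47, -4.44 and -4.56 at 0 d (2.78 ± 0.32, adjusted p = 0.0237). The transcript with the bare symbol WRKY (GRMZM2G125653), named after WRKY40, had -1.46, -1.76 and -2.21 at 4 d and -3.94, -4.04 and -4.29 at 0 d (2.28 ± 0.25, adjusted p = 0.0228). WRKY43 rose by 1.37 ± 0.18 on the log2 scale. Outside that list, GRMZM2G381378, named after the salicylate-linked WRKY70, had 0.80, 0.85 and 0.86 at 4 d and -1.33, -1.44 and -2.13 at 0 d (2.47 ± 0.26, adjusted p = 0.0228), and GRMZM2G176489, named after WRKY72, rose by 1.58 ± 0.21. In the other direction GRMZM2G065290, named after WRKY46, fell by 2.48 ± 0.34 on the log2 scale (adjusted p = 0.0409, above background on 2 of 3 arrays at 4 d).

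Regulators of other families also fell. A MYB30-like factor (GRMZM2G045748) had -3.54, -4.10 and -4.25 at 4 d and -0.70, 0.38 and -1.03 at 0 d (-3.51 ± 0.39, adjusted p = 0.0236). GLK5 had -2.24, -2.64 and -1.40 at 4 d and 0.89 and 0.87 at 0 d, with the third spot marked (-2.97 ± 0.39, adjusted p = 0.0429). Over all probes, 2.35% were higher and 2.15% lower past the threshold of the methods. The MYB list had 3 higher and 1 lower of 29 past it, with myb2 rising (1.43 ± 0.21). The bHLH list had 0 higher and 3 lower of 29 (1 without 0 d replicate 2, 5 without 0 d replicate 1). A bHLH factor without a symbol (GRMZM2G404922) nevertheless rose, with 2.70, 2.71 and 2.44 at 4 d and 0.92, 0.37 and 0.32 at 0 d (2.08 ± 0.24, adjusted p = 0.0237).

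Several of the deep falls were in enzyme families of secondary metabolism. HXXXD-type acyl-transferases join acyl groups to alcohols and amines. GRMZM2G066049, of this family, had -8.50, -8.44 and -6.53 at 4 d, near background throughout, against -1.18, 0.36 and 0.50 at 0 d, a fall of at least 101-fold (adjusted p = 0.00975). Its neighbour in the reference annotation, GRMZM2G066142, of the same family, had -3.40, -4.81 and -2.27 at 4 d and 1.19, 1.31 and 1.69 at 0 d, 29.7-fold lower (-4.89 ± 0.58, adjusted p = 0.028). On the other side of it lies a cytochrome P450 87A gene (GRMZM2G135536), with -0.18, -3.19 and 0.32 at 4 d and 3.63 and 4.40 at 0 d, with the second spot marked (-5.03 ± 1.01, adjusted p = 0.0997). Without 0 d replicate 3 it was not past the threshold of the methods. A relative elsewhere, cytochrome P450 87A9 (GRMZM2G179143), had -6.87, -9.01 and -9.04 at 4 d and -2.85, -2.54 and -1.44 at 0 d (-6.02 ± 0.64, adjusted p = 0.0228, above background on 1 of 3 arrays at 4 d). The family did not move as a whole, since the acyl-transferase GRMZM2G305900 rose (2.63 ± 0.37, adjusted p = 0.0411).

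Among the lists of secondary metabolism, flavonoid enzymes had 2 of 7 probes lower at the threshold of the methods, both chalcone synthases, the entry step of that pathway (whp, -3.05 ± 0.50, adjusted p = 0.0652, 1 marked spot at 0 d left out; c2, -1.80 ± 0.41, adjusted p = 0.112). Without 0 d replicate 2 or 3, c2 was not past it. For this and the following small lists, the share of all probes lower at that threshold was 2.15%. Terpene synthases had 2 of 6 lower, of which eks1, an ent-kaurene synthase of the gibberellin route, fell by 1.62 ± 0.23 on the log2 scale (adjusted p = 0.0411, above background on 2 of 3 arrays at 4 d). The other, tps26, had -3.09 ± 0.75 (adjusted p = 0.137) and was not past the threshold without 0 d replicate 2 or 4 d replicate 1. The jasmonate synthesis list had 3 lipoxygenases lower of 14 (LOX, lox6 and lox10, -2.08 to -1.15), with adjusted p of 0.112 to 0.129. Their number fell to 1 without 0 d replicate 2 or 4 d replicate 1 and to 2 without 0 d replicate 1 or 3 or 4 d replicate 2. The aos, aoc and opr probes of that list were not past the threshold, with ratios from -0.56 (opr6) to 1.14 (opr1). The median of the list was -0.05, and whether the 3 lipoxygenases serve jasmonate synthesis was not tested. An allene oxide synthase without a symbol (GRMZM2G168404), a later step of jasmonate synthesis, fell: it lay between -8.05 and -7.08 at 4 d, near background, and between -5.76 and -5.10 at 0 d, a fall of at least 2.65-fold (adjusted p = 0.0411). Enzymes of benzoxazinoids, the main defence compounds of maize seedlings, had 0 of 5 past the threshold.

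Lipid and wall enzymes held both rises and falls. 3-ketoacyl-CoA synthases start the elongation of the very long fatty acids of suberin and waxes. GRMZM2G060481 of this family had -1.46, -1.92 and -2.58 at 4 d and -4.58, -4.52 and -5.17 at 0 d (2.77 ± 0.34, adjusted p = 0.0299), and GRMZM2G168956 was at least 4.16-fold higher at 4 d (adjusted p = 0.00936). Laccase lac3, of a family that polymerises lignin units, had -0.83, -0.14 and -0.01 at 4 d and -3.09, -2.14 and -3.59 at 0 d (2.62 ± 0.41, adjusted p = 0.0476). On the list of laccases and monolignol enzymes it was the 1 of 14 probes past the threshold of the methods, which 4.5% of all probes passed. That list had a median of -0.12, with 6 positive and 8 negative ratios. Expansins loosen cell walls as cells grow. GRMZM2G064174, named expansin 11, had -5.57, -5.74 and -5.80 at 4 d and -1.91, -2.60 and -3.64 at 0 d (-2.99 ± 0.42, adjusted p = 0.0411), whereas GRMZM2G359799, under the same name, had 0.70, 0.75 and 1.29 at 4 d and -1.22, -1.32 and -1.51 at 0 d (2.26 ± 0.24, adjusted p = 0.0228). It was the only higher one: of 6 tested with expansin in their name, 4 were lower and 1 was higher at the threshold of the methods, with a median of -1.67. The other lower ones were expansin A17 (AC234190.1_FGT001, -2.34 ± 0.37, adjusted p = 0.0516) and a pair named expansin B2, of which GRMZM2G100931 fell (-1.95 ± 0.24, adjusted p = 0.03, measurable at 4 d on 1 of 3 arrays) and GRMZM2G082520 had -1.39 ± 0.25 (adjusted p = 0.0677). Names with expansin exist mostly for transcripts that the study had called, so the share and the median of the 6 have no comparison. The list of expansins by symbol had 0 of 10 past the threshold and a median of -0.56. Aldehyde dehydrogenases of the 2C4 kind, which oxidise aldehydes of the lignin route, rose in both probes with that name. GRMZM2G407949 had 5.03, 4.89 and 4.73 at 4 d and 2.42 and 2.66 at 0 d, with the first spot marked (2.35 ± 0.24, adjusted p = 0.0253), and GRMZM2G380438 rose by 2.05 ± 0.29. This name too comes from descriptions given mostly to transcripts that the study had called, and the pair was picked after its values were seen. So a rise of both has no comparison. Serine carboxypeptidase-like 40 (GRMZM2G072218) had -3.89, -4.05 and -4.24 at 4 d and -0.58, -1.09 and -0.86 at 0 d (-3.21 ± 0.22, adjusted p = 0.00442).

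Signalling genes included receptors, peptides and hormone turnover. S-locus lectin protein kinases are receptor-like kinases at the cell surface. GRMZM2G419318 had 0.74, 0.36 and 0.38 at 4 d and -1.97, -2.51 and -3.02 at 0 d (2.99 ± 0.30, adjusted p = 0.0226), and its relative GRMZM2G419290 rose by 2.55 ± 0.28. The peptide gene named after ralf-like 33 (GRMZM2G414475), of a family that alkalinises the wall and slows root elongation in Arabidopsis, had -3.40, -4.43 and -3.97 at 4 d and -0.43, 0.46 and -1.10 at 0 d (-3.58 ± 0.44, adjusted p = 0.03). Over all probes the median log2 ratio was -0.09, and 2.35% were higher and 2.15% lower at the threshold of the methods. TIFY repressors, which hold back jasmonate responses, had 3 of 18 higher and 0 lower at it, with a median of 0.49. Of these TIFY28 and TIFY2 (1.58 and 1.71, adjusted p = 0.0711 and 0.0896) are not in the study's text. The cytokinin list had 3 higher and 1 lower of 19 and a median of -0.40. Among 7 cytokinin oxidases, which break the hormone down, 2 were higher past the threshold (cko 2.94 ± 0.54, CKX4b 2.35 ± 0.37, adjusted p = 0.0839 and 0.0608, each with 1 marked spot left out). Of the others, cko2 had 1.39 ± 0.45 and 4 had negative ratios, down to -1.48 ± 0.44 for CKX10 (adjusted p = 0.181). The response regulator RR7 was the lower one (-1.64 ± 0.33, adjusted p = 0.086, above background on 1 of 3 arrays at 4 d). The remaining one, the phosphotransfer gene HP3, was past the threshold in 1 of the 6 fits without 1 array and turned direction with the normexp correction (-0.19). The calcium sensor CBL8 had 2 probes, with 1.64 ± 0.26 and 1.45 ± 0.29 (adjusted p = 0.0532 and 0.087).

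**Figure D3:**
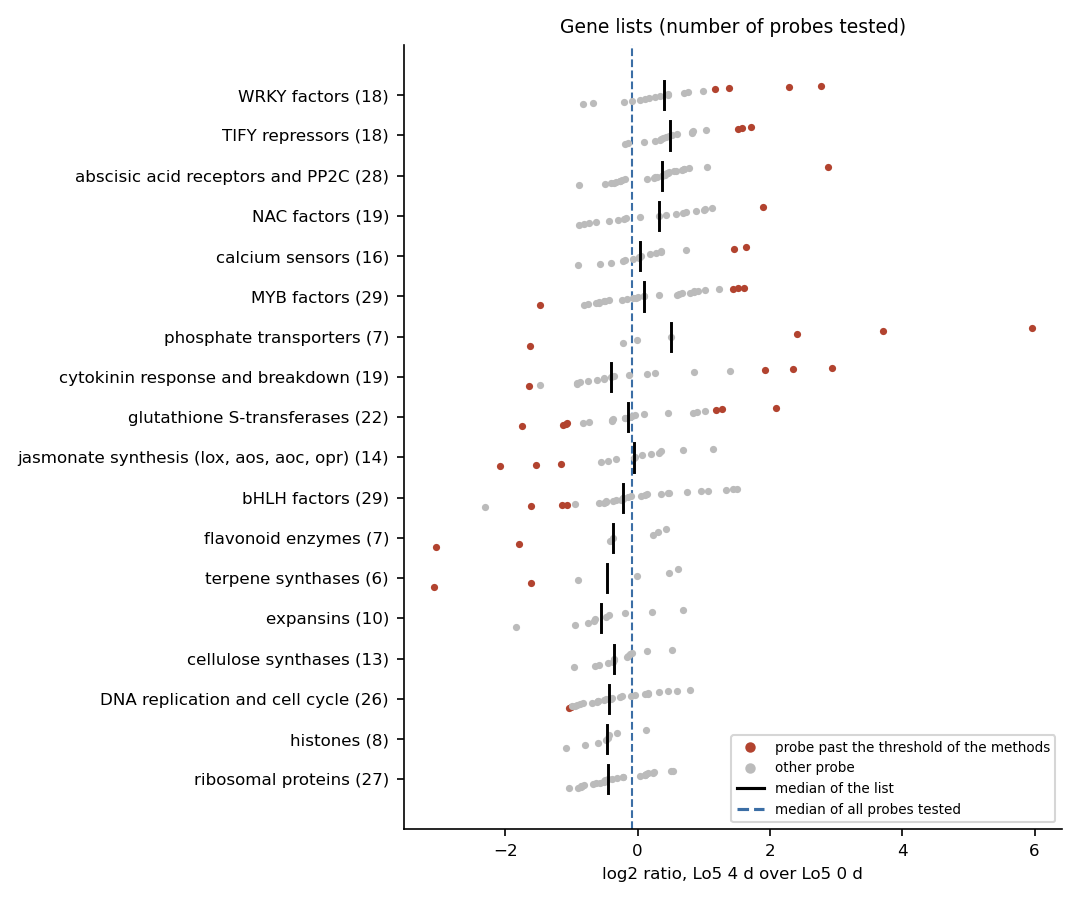
Log2 ratio of Lo5 4 d over Lo5 0 d (x axis) for each probe tested of 18 gene lists (rows), with the list's median as a black bar and the median of all probes, -0.09, as a dashed line. WRKY and TIFY probes lie mostly to the right of the line, and ribosomal, histone and replication probes mostly to the left, with few past the threshold of the methods (red).

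Transporters of N had ratios of both signs. The high-affinity nitrate transporter gene nrt2.2 (GRMZM2G010251), named in the study's text, had -1.88, -1.37 and -1.96 at 4 d and 0.81, 2.93 and 1.39 at 0 d. The days were apart, but the first 2 of the 0 d spots were marked, so the transcript was not among those tested. Fitted with all spots, it had a log2 ratio of -3.44 ± 0.52 (adjusted p = 0.0405). The ammonium transporter GRMZM2G043193, also in the study's text, had 0.91 and 0.47 at 4 d, with the second spot marked (0.96), and -0.85, -1.09 and -2.31 at 0 d. It was higher at 4 d at the threshold of the methods (2.11 ± 0.47, adjusted p = 0.119), though not without 4 d replicate 1 or 3. Nitrate transporter 1.5 (GRMZM2G044851), the third transporter of N with such a name, had 0.70 ± 0.66 (adjusted p = 0.626), and its days overlapped. Of the 9 probes of nitrate uptake and reduction chosen by symbol, nrt2.2 among them, 5 were tested, and 0 were past the threshold of the methods (NRT1.2 was lower past it without 0 d replicate 3, and nrt2.2 with all spots). Nitrite reductase NIR had the largest ratio of these (1.04 ± 0.43, adjusted p = 0.298). The probe of the close relative nrt2 (GRMZM2G010280) had 0.42 ± 0.45 (adjusted p = 0.674), and whether the probes of these related genes share targets was not tested. Of 8 genes that make glutamine, glutamate and asparagine, only gln3, a glutamine synthetase, was past it (-1.17 ± 0.26, adjusted p = 0.105), and it was not past it without 0 d replicate 2 or 4 d replicate 1 or 2. Lists of growth lay below the median of all probes: ribosomal proteins had a median of -0.45 over 27 probes, histones -0.47 over 8, and DNA replication and cell cycle genes -0.44 over 26. Past the threshold were 0, 0 and 2 of them (MCM7 and RNRS3, adjusted p = 0.112 and 0.125), and neither was past it without 0 d replicate 3 or 4 d replicate 2 or 3. Without 0 d replicate 3 the median of the ribosomal list was -0.05 and that of the histones -0.17, where all probes again had -0.09.

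A number of transcripts were measured on 1 day only. Well above background at 4 d throughout and on no array of 0 d were 106 probes, of which 41 were past the threshold of the methods and 11 had risen. The reverse held for 47 probes, of which 39 were past it and 10 had fallen. Such a probe passed the filter through its brighter day, so these counts describe the set and compare it with nothing. Besides those above, the largest lower limits were 14.1-fold for a zinc-binding dehydrogenase (GRMZM2G125196, adjusted p = 0.136, past the threshold of the methods in 1 of the 6 fits without 1 array) and 6.04-fold for the unnamed GRMZM2G082504 (adjusted p = 0.00319) on the higher side. On the lower side ZCN25 (GRMZM2G021560), of the family of the flowering signal FT, had a limit of 13-fold. It lay between -8.55 and -8.01 at 4 d and at -5.05, -3.05 and -1.30 at 0 d (adjusted p = 0.0518).

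**Figure D4:**
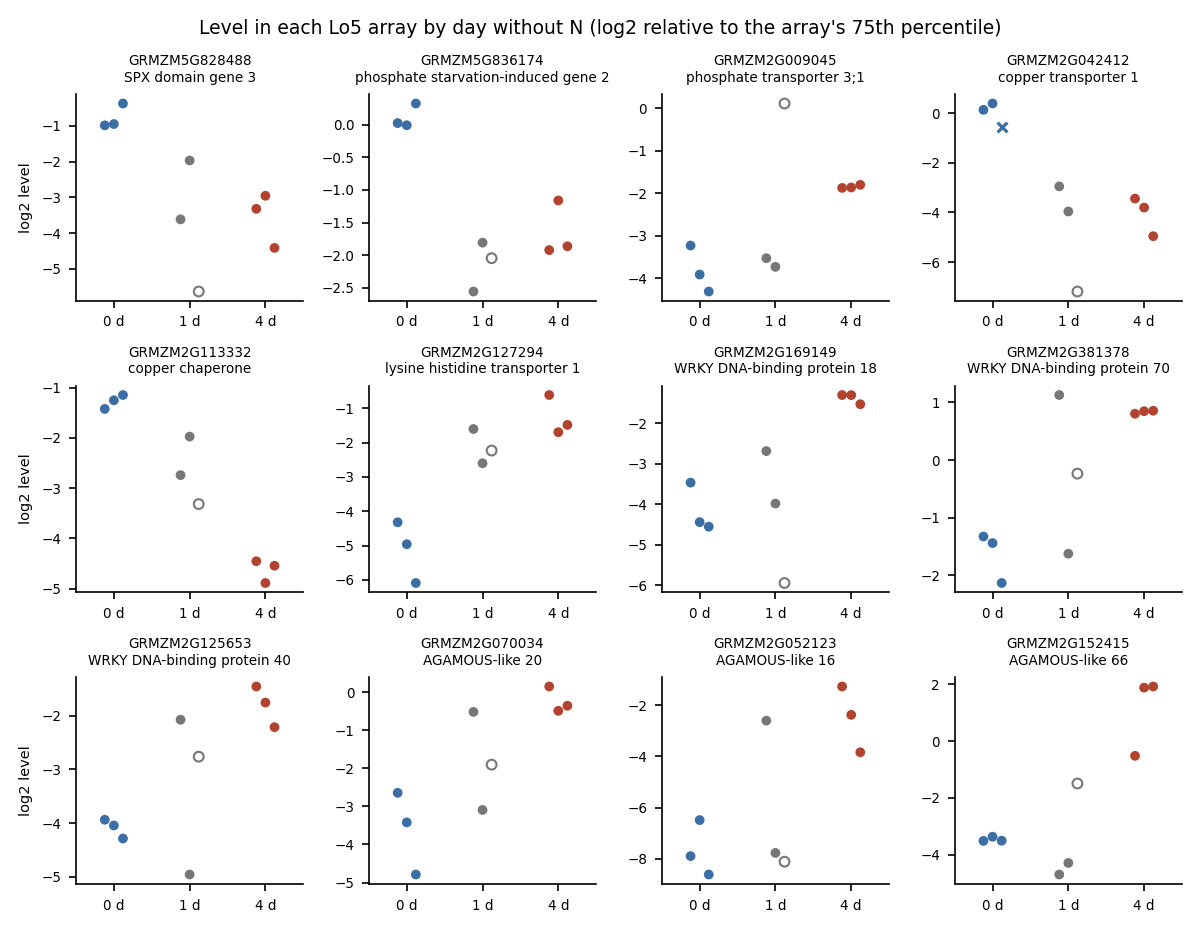
Level of 12 transcripts on each Lo5 array (y axis, log2 relative to the array's 75th percentile, own scale in each panel) at 0, 1 and 4 d without N (x axis), as points for single arrays. Open circles are the array labelled Lo5 1 d replicate 3, which has a T250 profile, and the cross is a marked spot; the other 2 arrays of 1 d fall between the 0 d and 4 d values in some panels and outside them in others.

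At 1 d the 2 remaining arrays showed different courses, which are given as values since 2 arrays allow no firm test. Lysine histidine transporter 1 stood at -1.60 and -2.60 at 1 d, within or next to its 4 d range and above all 0 d values. Copper transporter 1 stood at -2.95 and -3.96 at 1 d, within or near its 4 d range, while the copper chaperone stood at -2.74 and -1.97, between the other days. Phosphate starvation-induced gene 2 was already at -2.55 and -1.81 at 1 d, whereas phosphate transporter 3;1 was still at -3.53 and -3.73, within its 0 d range. Several of the genes with large changes differed between the 2 arrays of 1 d by more than the spread at either other day. The gibberellin-regulated GRMZM2G107003 had -1.05 and -7.02, AGAMOUS-like 16 had -2.60 and -7.77, WRKY70 had 1.13 and -1.63, and the acyl-transferase GRMZM2G066049 had -6.40 and 2.01. In each of these the first value lay nearer the 4 d levels and the second nearer those of 0 d. The 2 arrays were on different slides and scanned on different days, so sample, slide and scan cannot be told apart here.

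**Figure D5:**
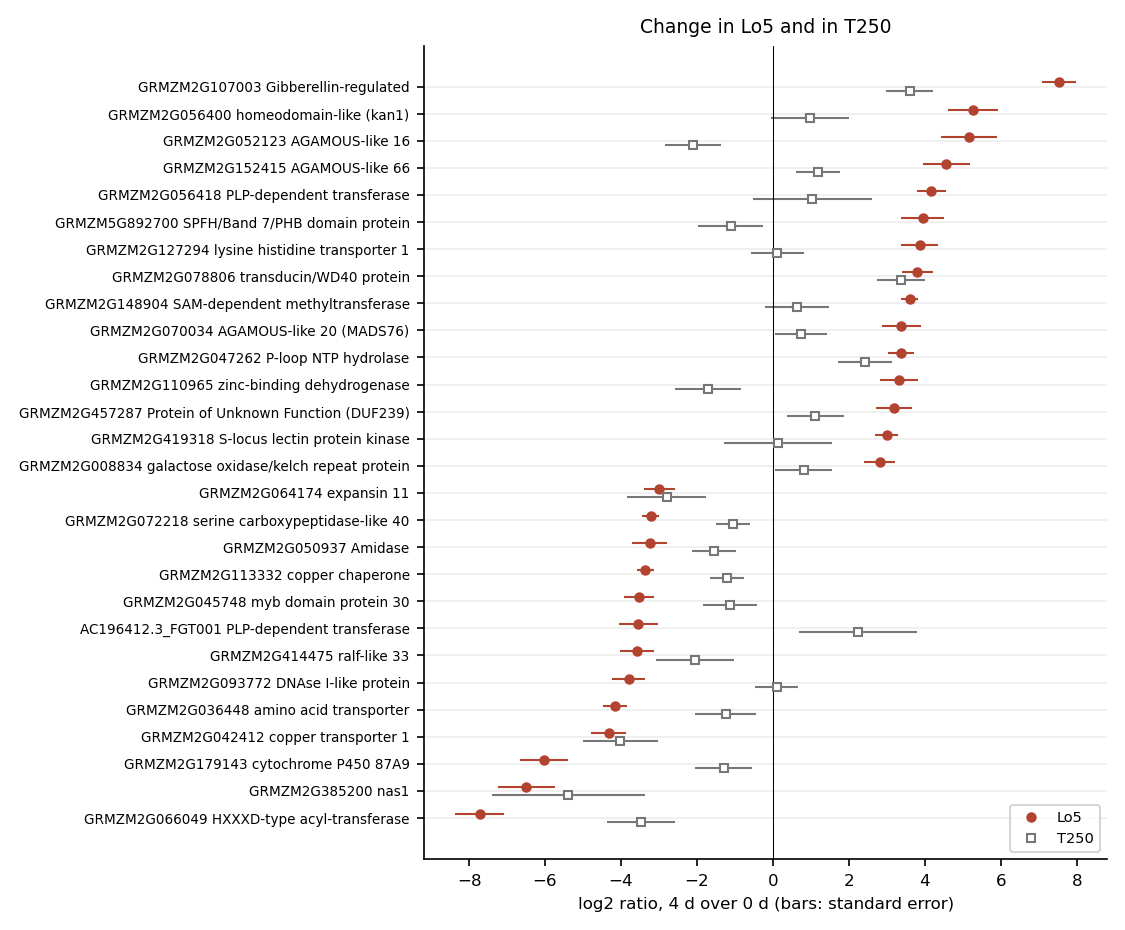
Log2 ratio of 4 d over 0 d (x axis, bars are standard errors) in Lo5 (filled circles) and T250 (open squares) for the 28 of the 30 transcripts that were also tested over both lines. Copper transporter 1 and expansin 11 have like ratios in both lines, and AGAMOUS-like 16 has 5.17 in Lo5 and -2.11 in T250.

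In T250, fitted over the 12 arrays of both lines at both days, 519 of 24792 probes also tested in Lo5 were higher at 4 d (2.09%) and 766 lower (3.09%) at the threshold of the methods. Of the 91 transcripts that rose in Lo5, 90 were tested there, and 24 (26.7%) were past the threshold in the same direction and 2 in the other. Of the 72 that fell, 66 were tested, and 14 (21.2%) were past it in the same direction and 2 in the other. The difference between the lines' changes passed an adjusted p of 0.05 for 0 of 26487 probes (1602 had an unadjusted p up to 0.05, and the smallest adjusted p was 0.105), so no transcript is shown to change differently in Lo5. Among transcripts with like ratios, copper transporter 1 had -4.32 ± 0.46 in Lo5 and -4.02 ± 0.99 in T250, and apyrase 1 (GRMZM2G349839), which cleaves extracellular nucleotides, had -2.75 ± 0.23 and -2.95 ± 0.50. The smallest adjusted p of a difference was that of AGAMOUS-like 16, which was lower at 4 d in T250 (-2.11 ± 0.73) and differed by 7.27 ± 1.03. Lysine histidine transporter 1 had 3.86 ± 0.49 in Lo5 and 0.12 ± 0.69 in T250, a difference of 3.75 ± 0.93 (adjusted p = 0.557). Among those past the threshold in the opposite direction in T250 was the aldehyde dehydrogenase GRMZM2G380438 (-2.72 ± 0.84), with a difference of 4.78 ± 1.19 (adjusted p = 0.54).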

How the data were processed

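Root RNA of Lo5 and T250 at 0, 1 and 4 d without N was hybridised to custom Agilent 1-colour arrays. The authors deposited the scanner output (Agilent Feature Extraction 10.5.1.1), in which spot intensity is background-corrected, and a table of the same intensities scaled by 1 factor per array. From the deposited intensity, log2 values minus the array's 75th percentile were taken, marked spots were left out, and probes well above background on all 3 arrays of either group with at least 2 unmarked spots per group were tested with limma 3.58.1 in R 4.3.3. p-values measure the spread between these samples. Levels of different probes were not compared, and the number of arrays limits the precision. A lower limit ("at least N-fold") sets the bright day's mean against the higher, per array, of the lowest signal well above background and the dim probe's own signal. Exact permutation of 3 against 3 arrays cannot go below p = 0.1, so none was used. The fit was tested on simulated data: of 200 of 26224 probes changed by a log2 value of 2, 185 passed the methods' threshold with 128 false calls, and 97 passed the adjusted one with 5.

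Of 39372 probes, 18727 matched a gene of the reference annotation (RefSeq, Zm-B73-REFERENCE-NAM-5.0), 2669 had a symbol there, and 899 a description in the study's tables, which were used for names alone and cover mostly transcripts that the study called. Gene lists were meant to be matched on descriptive gene names, which the annotation used here does not give, and were rebuilt on symbols. Members and lists were chosen with earlier results of these data known. Named were the 15 largest rises and the 15 largest falls after adjustment with a name, among those whose unmarked day groups did not overlap. Also named were up to 3 per direction of a list, and up to 5 per direction of transcripts well above background on 1 day only. Those in the study's text were left out unless they belong to a list. Transcripts named beside them by family or role were chosen after their values were seen. The number of per-sample columns not used is 0. Alternatives covered the arrays in the fit, the test, blocks for replicate number and slide, normalization, filters, marked spots, a floor, background correction by normexp on median signals (in place of mean signals, not used here), the deposited table, and leaving out each array.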

Additional observations from a re-analysis of the deposited data

How the results depend on the processing

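At the threshold of the methods, where 1181 transcripts were past it, the count was 506 with all 18 arrays in the fit, 627 with 17 (without the array labelled Lo5 1 d replicate 3), 449 by the methods' t-test, 1859 with the slide as a block and 783 with normexp, and it ran between 816 and 1336 when each array was left out in turn. After adjustment, where 163 were called, it was 21 with all 18 arrays, 46 with 17, 0 by the methods' t-test (3403 at an unadjusted p up to 0.05), 802 with the slide as a block, 18 with no filter on dim probes, 440 with normexp, 267 with quantile normalization, and between 8 and 254 when each array was left out. The cause of these shifts was not tested. Normexp moved the median of all probes to -0.21 and turned the direction of 5 transcripts, namely GRMZM2G008834 (-0.0121), GRMZM2G033566 (-0.11), PHT1-3 (GRMZM2G045473, -0.0877), GRMZM2G168304 (-0.27) and HP3 (GRMZM2G451604, -0.19), each not well above background at 0 d. Of the 163, 58 were not past the threshold of the methods with all 18 arrays, 43 with normexp and 1 by the t-test, and all were past it with the slide block, quantile normalization, no filter and the deposited table.

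The same replicate numbers at 4 d and 0 d did not deviate together (correlations of -0.035, 0.047 and -0.124 for numbers 1 to 3), so they were not taken as pairs. With a replicate block 1128 transcripts were past the threshold of the methods and 15 were called after adjustment, and 161 of the 163 stayed past the threshold of the methods. The share of promoters with known words was not run, since no promoter sequences were used here.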

Other observations

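Some of the transcripts that changed lie next to each other. Of 12148 tested genes placed in the reference annotation, 540 were past the threshold of the methods, and of 4845 neighbouring pairs of tested genes 16 had both members past it, 14 of them in the same direction. Besides the acyl-transferases described above, the pairs included PP2C13 (at least 3.49-fold higher at 4 d, adjusted p = 0.0901) with an oxidoreductase, GRMZM2G415579 (1.75 ± 0.22), and the amino acid transporter GRMZM2G036448 described above with the unnamed GRMZM2G019413 (-1.49 ± 0.38). In the opposite direction were the zinc transporter 5 precursor (1.55 ± 0.21) and its neighbour EREB121 (-1.28 ± 0.28, not past the threshold without 0 d replicate 2 or 4 d replicate 2 or 3). No chance level was computed for these pairs.

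Of the 163 transcripts called after adjustment, 23 had no name. Among these GRMZM5G830545 had levels of -3.07, -4.01 and -3.39 at 4 d and 1.80, 0.55 and 0.13 at 0 d (-4.32 ± 0.46, adjusted p = 0.0228), and GRMZM2G476040 had 1.13, 1.30 and 2.24 at 4 d and -2.85, -1.39 and -2.04 at 0 d (3.65 ± 0.44, adjusted p = 0.0297). Their groups did not overlap.

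Starch branching enzyme ae1, better known from the endosperm, fell in these roots: it lay between -7.14 and -6.28 at 4 d, near background throughout, and at -4.70, -4.33 and -4.80 at 0 d, a fall of at least 4.20-fold (adjusted p = 0.0364). The BURP-domain gene BURP3 had -1.80, -1.98 and -2.37 at 4 d and 0.60, 0.90 and 0.78 at 0 d (-2.81 ± 0.23, adjusted p = 0.00936).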
